A study of Homo sapiens with 6 samples.

Results

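The STAT genes encode the signal transducers and activators of transcription, and 6 of them (STAT2, STAT3, STAT4, STAT5A, STAT5B and STAT6) were followed in RNA sequencing of DCIS.COM cells with and without knockdown of BCL9. They were taken by gene name from the 58676 genes of the deposited expression table, and each name had 1 row. DCIS.COM is an established human breast cell line that forms ductal carcinoma in situ when grafted, and both groups were the same line transduced with a PLKO.1 lentiviral vector. The NS control cells carried a non-silencing shRNA, and the BCL9 KD cells carried an shRNA against BCL9, a co-activator of β-catenin in Wnt signaling. Each group had 3 libraries from separate T75 flasks in medium with horse serum, and no cytokine was named in their labels. The knockdown rests on a single BCL9 shRNA, so effects of this shRNA on other transcripts cannot be told apart from effects of losing BCL9. The comparison asked whether STAT3, which the study places in a protein complex with BCL9, changed alone or together with its relatives.

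STAT proteins lie latent in the cytoplasm until a cytokine or growth factor receptor is engaged. Receptor-bound JAK kinases, or tyrosine kinases such as EGFR and SRC, then phosphorylate a tyrosine near the STAT carboxyl end, and paired STATs enter the nucleus and bind DNA at palindromes of the form TTCNNNGAA, where N is any base. STAT3 carries the signals of IL6, LIF and related cytokines, STAT5A and STAT5B those of prolactin and growth hormone in breast epithelium, STAT6 those of IL4 and IL13, STAT4 that of IL12 in lymphocytes, and STAT2 works with IRF9 downstream of type I interferon. RNA levels report on the supply of each STAT and not on its phosphorylation.

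Expression was measured as FPKM, the reads counted on a gene scaled to the length of the gene and to the reads counted in the library. The libraries held between 15222452 and 26949026 counted reads, and replicate libraries of a group correlated with Pearson r between 0.964 and 0.987. Log2 fold changes were taken as BCL9 KD minus NS control on log2(FPKM + 0.5), which understates the change of genes with low expression, and were tested with limma over the 13745 genes with a mean of at least 0.5 FPKM. A gene was called at an adjusted p under 0.05 after Benjamini-Hochberg adjustment over all genes tested, and the median log2 fold change of those genes was 0.04. BCL9 itself was at 6.25, 6.24 and 5.34 FPKM in the NS control libraries and at 2.86, 2.78 and 2.59 FPKM in the BCL9 KD libraries. Every BCL9 KD library was below every NS control library, with a log2 fold change of −0.99 (adjusted p = 0.00773 by limma, SE 0.0933). Leaving out NS control 2, BCL9 KD 2 or BCL9 KD 3 raised the adjusted p of BCL9 to 0.0636, 0.06 and 0.07 by limma. The basal markers KRT5, KRT14, KRT6A and TP63 and the epithelial markers EPCAM and CDH1 were detected in all libraries, and none of them was called. TP63 (log2 fold change 0.27) and CDH1 (−0.16) did not overlap between the groups (adjusted p = 0.18 and 0.173 by limma), and KRT6A was at −0.24 (0.376). Of the 5 luminal markers, PGR was at 0 in all libraries and ESR1 did not exceed 0.098 FPKM, whereas GATA3 had a mean of 7.97 FPKM over the 6 libraries and the keratin genes KRT8 and KRT18 were abundant. KRT8 was at 293 ± 36.4 FPKM in NS control and 244 ± 2.01 FPKM in BCL9 KD cells, and KRT18 at 177 ± 24.4 and 150 ± 7.28 FPKM (SD, n = 3), without overlap between the groups and without passing the test (adjusted p = 0.144 and 0.207 by limma). Their part in the STAT values was not tested. The endothelial marker PECAM1 was called higher in BCL9 KD cells (2.1 ± 0.328 against 3.45 ± 0.412 FPKM, SD, n = 3, adjusted p = 0.0477 by limma) while VWF did not exceed 0.0307 FPKM, and the part of PECAM1 in the STAT values was not tested. The PECAM1 call was lost under quantile normalization (adjusted p = 0.0863 by limma) and without any 1 of NS control 1, NS control 2, BCL9 KD 1, BCL9 KD 2 and BCL9 KD 3 (0.0534, 0.144, 0.0935, 0.163 and 0.186). It was also lost under median-of-ratios scaling (adjusted p = 0.0595 by limma), with no filter on low values (0.127) and without the variance trend of limma (0.0632).

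STAT3 RNA fell in BCL9 KD cells, and it was the 1 STAT gene of the 5 tested whose change was called. STAT2, STAT4, STAT5B and STAT6 did not pass the test in either direction, and STAT5A was too low to be tested. A missing call does not show that a gene was unchanged, and whether STAT3 changed more than its relatives was asked separately, of their ratios. Over all genes tested, 5.87% were called, 2.91% lower and 2.96% higher, against 1 of 5 for the STAT genes. With so few members this share says little, and the individual genes are therefore given one by one, from the highest level to the lowest. Among the 5, the log2 fold changes had a median of −0.18, with 3 below 0 and 2 above. The plot of levels by library shows all 6.

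**Figure D1:**
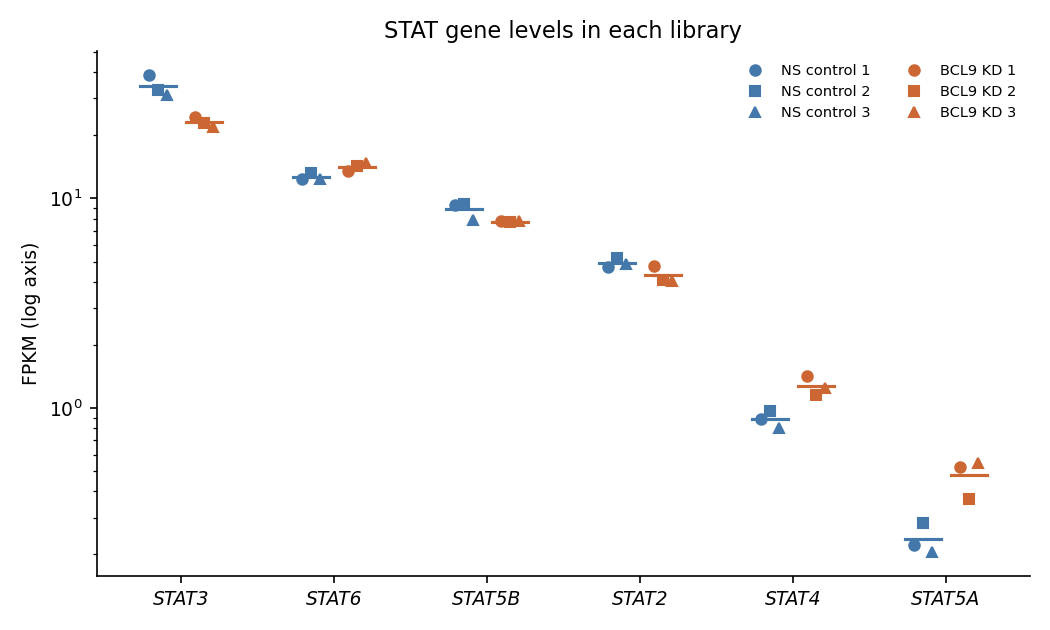
FPKM (log axis) of each STAT gene in the 3 NS control (blue) and 3 BCL9 KD libraries (orange), with marker shapes for replicate numbers and bars at the group means. STAT3 is the highest in both groups and lower in all 3 BCL9 KD libraries, whereas STAT4 and STAT5A, the lowest, are higher in all 3.

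STAT3 (ENSG00000168610) lies on the minus strand of chromosome 17 from 42313324 to 42388568 in hg38. It was at 39.0, 33.1 and 31.1 FPKM in NS control libraries 1, 2 and 3, and at 24.5, 22.9 and 22.0 FPKM in the BCL9 KD libraries. The groups did not overlap, and the highest value, in NS control 1, stood above both other controls. The mean was 34.4 ± 4.14 FPKM in NS control and 23.1 ± 1.26 FPKM in BCL9 KD cells (SD, n = 3 each), a change of −32.7%. The log2 fold change was −0.56 with a 95% interval from −0.79 to −0.32 (adjusted p = 0.0325 by limma, SE 0.099). It ranked 403 from the lowest of the 13745 genes tested. These values rest on 3040 to 7810 reads per library, so counting error was small. In bulk RNA, fewer cells expressing a gene and less RNA per cell cannot be told apart.

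The size of the STAT3 change held when single libraries were removed, but its call did not always. Leaving out NS control 1, where STAT3 was highest, gave a log2 fold change of −0.46 (adjusted p = 0.03 by limma). Leaving out NS control 2, BCL9 KD 2 or BCL9 KD 3 gave −0.58, −0.55 and −0.52, with limma adjusted p-values of 0.13, 0.156 and 0.159. With no filter on low values the adjusted p was 0.085, and without the variance trend of limma it was 0.0548.

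STAT6 (ENSG00000166888, chromosome 12, minus strand, 57095408 to 57132139) was the next most abundant. It was at 12.4, 13.2 and 12.4 FPKM in NS control cells and at 13.5, 14.3 and 14.7 FPKM in BCL9 KD cells. The groups did not overlap, yet they lay close, with means of 12.7 ± 0.45 and 14.2 ± 0.621 FPKM (SD, n = 3). The log2 fold change of 0.16 had a 95% interval from −0.01 to 0.32 and did not pass (adjusted p = 0.198 by limma). STAT6 overlaps LRP1, an endocytic receptor gene, and NAB2, a repressor of EGR factors, both on the opposite strand. No source used here states whether reads were counted by strand, so reads in the shared stretches cannot be assigned with certainty. LRP1 had a log2 fold change of −0.29 (adjusted p = 0.189 by limma) and NAB2 one of 0.27 (adjusted p = 0.0707 by limma).

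STAT5B (ENSG00000173757, chromosome 17, minus strand, 42199168 to 42276707) was at 9.3, 9.38 and 7.92 FPKM in NS control cells. In BCL9 KD cells it was at 7.78, 7.7 and 7.78 FPKM. NS control 3 lay just above the BCL9 KD libraries, so the absence of overlap rests on a narrow gap. The log2 fold change was −0.18 with a 95% interval from −0.38 to 0.02 (adjusted p = 0.228 by limma).

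STAT2 (ENSG00000170581, chromosome 12, minus strand, 56341597 to 56360155) was at 4.72, 5.19 and 4.88 FPKM in NS control cells and at 4.78, 4.08 and 4.06 FPKM in BCL9 KD cells. BCL9 KD 1 fell within the NS control range, and the groups overlapped. The log2 fold change was −0.18 with a 95% interval from −0.40 to 0.04 (adjusted p = 0.254 by limma). The intervals of STAT2 and STAT5B leave room for a decrease of more than 0.3 on the log2 scale, so these data do not show that either was unchanged.

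STAT4 (ENSG00000138378, chromosome 2, minus strand, 191029576 to 191151596) was low in both groups, with 52 to 132 reads per library. It was at 0.891, 0.965 and 0.804 FPKM in NS control cells and at 1.42, 1.15 and 1.25 FPKM in BCL9 KD cells. All 3 BCL9 KD values exceeded all 3 NS control values, and the ratio of means was 1.44. The log2 fold change was 0.35 with a 95% interval from 0.05 to 0.66, and it did not pass after adjustment (adjusted p = 0.139 by limma). STAT4 is best known from lymphocytes, whose defining markers were at or near 0: PTPRC and CD3E had 1 read in a single library each. The summed FPKM of the 5 leukocyte markers was 0.294 to 0.56 in NS control and 0.837 to 1.38 in BCL9 KD libraries, nearly all of it from CD14 (adjusted p = 0.0811 by limma), a myeloid receptor gene that epithelial cells can also express. Its part in the STAT4 values was not tested.

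STAT5A (ENSG00000126561, chromosome 17, plus strand, 42287547 to 42311943) was the lowest member, and its mean of 0.357 FPKM kept it out of the test. It was at 0.222, 0.283 and 0.206 FPKM in NS control cells, from 29, 33 and 18 reads. In BCL9 KD cells it was at 0.521, 0.368 and 0.544 FPKM, from 53, 57 and 49 reads. The groups did not overlap and the ratio of means was 2.01 (exact permutation test, two-sided p = 0.1, which is the lowest that 3 against 3 allows). In the fit without a filter, in which 0.462% of 30731 genes were called, the log2 fold change of STAT5A was 0.40 (adjusted p = 0.253 by limma). STAT5A and STAT5B are close relatives: 7.56% of the 50-base windows of STAT5A transcripts also occur in STAT5B transcripts. Reads from such stretches cannot be assigned with certainty, and could have been credited to either gene or left out. No other pair of the 6 genes shared a window of that length.

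**Figure D2:**
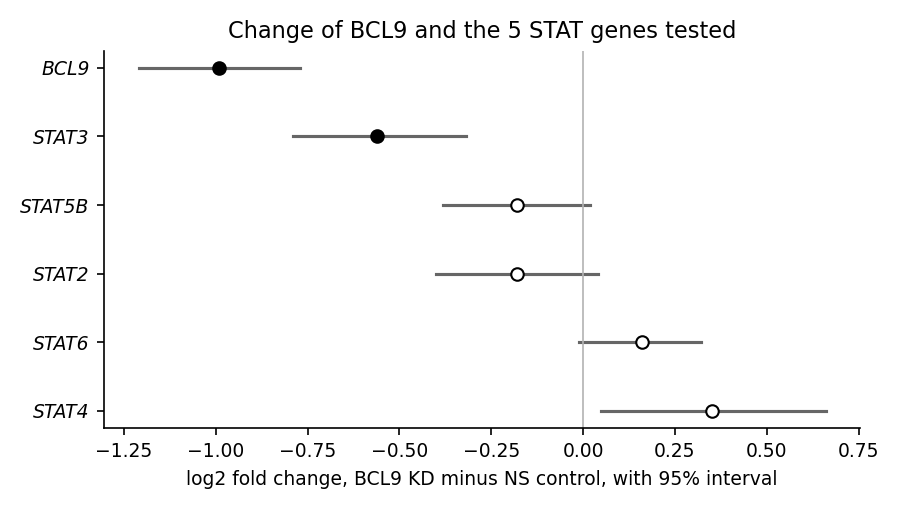
Log2 fold change, BCL9 KD minus NS control on log2(FPKM + 0.5), of BCL9 and the 5 STAT genes tested, with 95% intervals as lines and filled points where limma's adjusted p was under 0.05. The interval of STAT3 lies between −0.79 and −0.32, and those of STAT5B, STAT2 and STAT6 include 0.

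Groups that do not overlap were common in these data: 34.2% of all genes tested had this property. It was met by 4 of the 5 STAT genes tested (STAT3, STAT4, STAT5B and STAT6) and by STAT5A. The order of levels was STAT3, STAT6, STAT5B, STAT2, STAT4 and STAT5A in NS control cells, and the same in BCL9 KD cells. In neither group did neighbours in that order overlap. The narrowest step in NS control cells was from STAT6 to STAT5B, with a ratio of means of 1.43. In BCL9 KD cells it was from STAT3 to STAT6, where the ratio of means was 1.63 against 2.72 in NS control cells.

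Whether STAT3 changed more than a given relative was asked of the ratio of the pair within each library. Any scaling of the library cancels in the plain ratio, but not fully in the tested log2 ratio, where 0.5 FPKM is added to each gene. The ratio of STAT3 to STAT6 FPKM was 3.15, 2.51 and 2.51 in NS control libraries and 1.82, 1.6 and 1.5 in BCL9 KD libraries. On the log2 scale, with 0.5 FPKM added, this is a difference of −0.71 (standard error 0.134). Against STAT5B the ratio was 4.2, 3.53 and 3.92 in NS control and 3.15, 2.97 and 2.83 in BCL9 KD libraries, a log2 difference of −0.38 (standard error 0.0835). Against STAT2 it was 8.27, 6.37 and 6.36 in NS control and 5.13, 5.6 and 5.42 in BCL9 KD libraries, also a log2 difference of −0.38 (standard error 0.125). Against STAT4 the log2 difference was −0.91 (standard error 0.102), with ratios of 34.3 to 43.8 in NS control and 17.2 to 19.8 in BCL9 KD libraries. As STAT4 is low, the added value weighs on this difference, which ran from −1.042 to −0.816 under the alternatives tried. In each of the 4 pairs, every BCL9 KD library had a lower ratio than every NS control library. The two-sided exact permutation test gave p = 0.1 for each of the 4 pairs and 0.1 after Benjamini-Hochberg adjustment, the smallest p this design allows, so it cannot pass 0.05 here.

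The composition of STAT RNA shifted accordingly. STAT3 made up 58.6%, 53.3% and 54.2% of the summed FPKM of the 6 genes in NS control libraries, and 46.7%, 45.3% and 43.7% in BCL9 KD libraries. The mean share went from 55.4% ± 2.84 to 45.2% ± 1.48 (SD, n = 3), a difference of −10.2 percentage points (exact permutation test, two-sided p = 0.1, the lowest possible). The share of STAT6 was 18.6% to 21.6% in NS control and 25.7% to 29.2% in BCL9 KD libraries. The sum of the other 5 genes overlapped between the groups, at 27.6 ± 1.39 FPKM in NS control and 28.0 ± 0.357 FPKM in BCL9 KD cells (SD, n = 3). With STAT3 the sum was 62.0 ± 4.65 and 51.1 ± 1.19 FPKM (SD, n = 3), and the groups did not overlap. STAT4 and STAT5A weigh little in these sums, with mean shares of at most 2.49%.

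**Figure D3:**
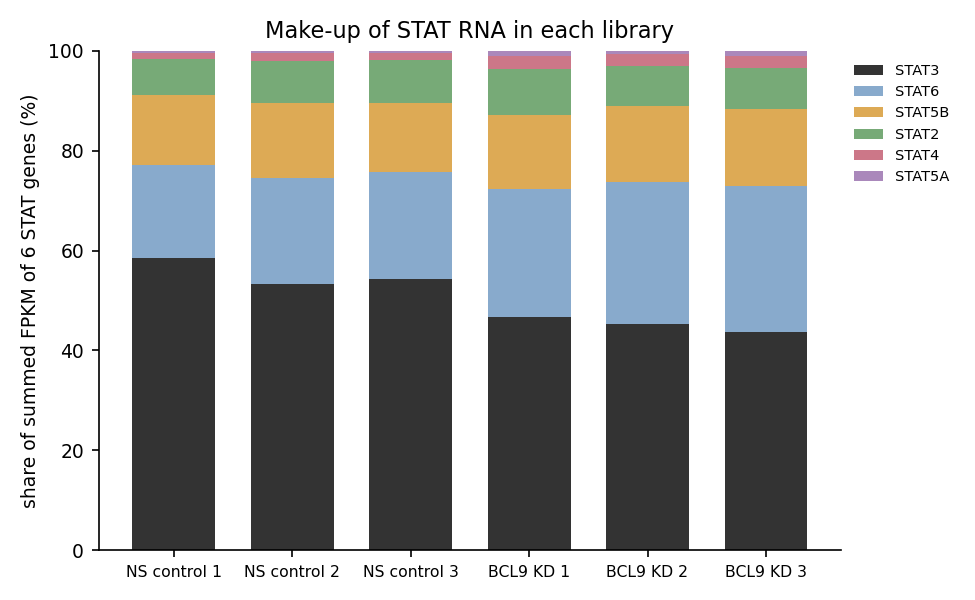
Stacked bars of the share of each STAT gene in the summed FPKM of the 6 genes (%), 1 bar per library. The STAT3 segment is 53.3% to 58.6% in NS control libraries and 43.7% to 46.7% in BCL9 KD libraries, and the STAT6 segment is wider in the latter.

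STAT5B, STAT5A and STAT3 stand side by side on chromosome 17, with 1381 bases between STAT5A and STAT3, so the neighbourhood of STAT3 was read from the same fit. Within 500000 bases on either side, 35 of 73 genes could be tested, and their median log2 fold change was 0.05. None was called higher and 1 was called lower, close to the 2.91% called lower over all genes. An unadjusted p under 0.05 was found for 7 of the 35, and voom, which called 10.1% of all genes tested, called 2 of them (PTRF and ATP6V0A1). That gene was PTRF, which encodes the caveola coat protein cavin-1 and lies on the same strand as STAT3, 13884 bases upstream of its start. PTRF was at 195, 168 and 148 FPKM in NS control and at 124, 115 and 112 FPKM in BCL9 KD libraries, a log2 fold change of −0.53 (adjusted p = 0.0433 by limma, SE 0.109).

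The levels of PTRF and STAT3 kept nearly the same proportion in all 6 libraries. PTRF FPKM over STAT3 FPKM was 4.99, 5.07 and 4.77 in NS control and 5.06, 5.04 and 5.08 in BCL9 KD libraries. Their Pearson r over the 6 libraries was 0.995, which ranked 11 among 11145 protein-coding genes compared with STAT3. An r of at least 0.9 was reached by 10.6% of those genes, and all such correlations share the same 6 libraries in their 2 groups. On the other side of STAT3 the nearest gene tested was STAT5B, 36617 bases away. ATP6V0A1, a proton pump subunit gene and the next tested gene beyond PTRF, was named after its values were seen, with a log2 fold change of −0.35 (adjusted p = 0.0561 by limma). PTRF lost its call without NS control 2, BCL9 KD 1, BCL9 KD 2 or BCL9 KD 3, with limma adjusted p-values of 0.153, 0.057, 0.185 and 0.189. It was also above the threshold under median-of-ratios scaling (adjusted p = 0.0546 by limma), without a filter (0.12) and without the trend (0.0673).

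Around the other STAT genes, the same window held 1 called gene of 34 tested for STAT2, by limma, against 5.87% of all genes, while 9 had an unadjusted p under 0.05 and voom called 5 (PAN2, ERBB3, NACA, RPL41 and RPS26). The gene called by limma was PAN2, a deadenylase subunit gene 7544 bases from STAT2, with a log2 fold change of 0.52 (adjusted p = 0.0357 by limma). It lost its call without NS control 2, BCL9 KD 1, BCL9 KD 2 or BCL9 KD 3 (adjusted p = 0.144, 0.0641, 0.166 and 0.179 by limma) and with no filter (0.0909). The windows of STAT6 and STAT4 held 0 called genes of 22 and 8 tested by limma, where 4 and 1 had an unadjusted p under 0.05 and voom called 2 and 0. Those of STAT5A and STAT5B largely repeat the window of STAT3. Of 36 and 34 genes tested there, limma called 2 in each, STAT3 itself and PTRF, both lower.

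**Figure D4:**
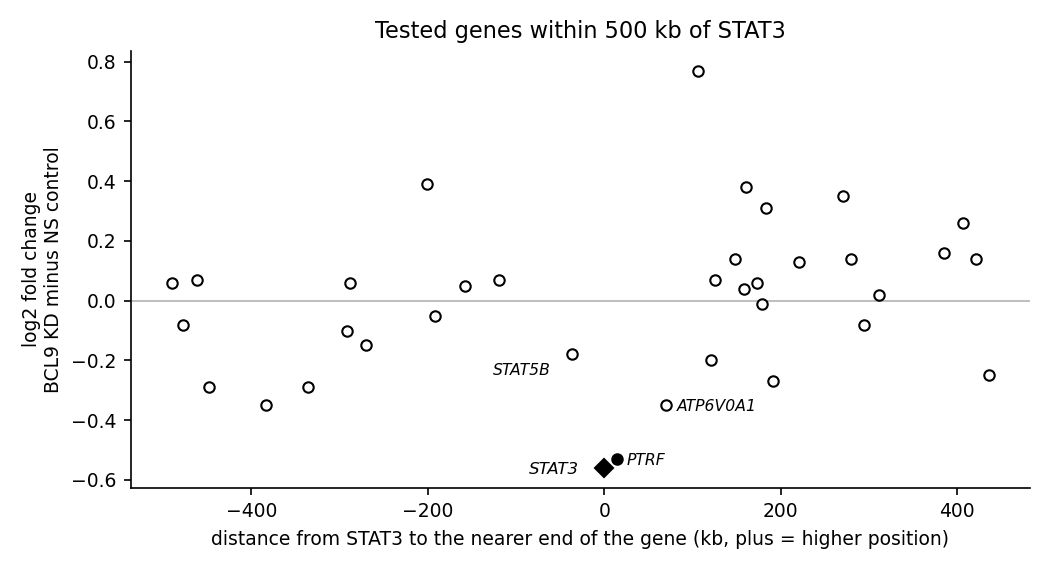
Log2 fold change, BCL9 KD minus NS control, of the 35 tested genes within 500000 bases of STAT3 against their distance from it (kb), with filled points for limma adjusted p under 0.05 and a diamond for STAT3. PTRF, at −0.53, is the 1 filled circle, and the others scatter on both sides of 0 around a median of 0.05.

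The promoters of the 6 genes were read from RefSeq on GRCh38.p14 (250 bases before to 50 after each annotated start), which gave 9 promoters with at least 1 for each gene. Both strands were searched for TTCNNNGAA, the common STAT site, for TTCNNNNGAA, the form that STAT6 prefers, and for ATCAAAG, a TCF/LEF core through which β-catenin and BCL9 act on DNA. They occurred in 7.66%, 6.44% and 2.62% of all 35116 promoters. The promoter of STAT3 held none of the 3. Among the 9, the 1 match was a TTCNNNNGAA in the first listed promoter of STAT5A. TTCNNGAA, with a spacer shorter by 1 base, and GACGTC, the core to which CREB and ATF factors bind, were added after the sequences had been seen, and occurred in 7.74% and 5.03% of all promoters. The sites below are those in STAT3, the gene that was called, and in STAT4 and STAT5A, the members with the highest ratios of BCL9 KD to NS control, with the motif in capitals and 8 bases on each side, 5′ to 3′ on the strand of the gene.
STAT3, TTCNNGAA, chr17:42388558-42388581, minus strand: gctggcctTTCATGAAttatgcat
STAT3, GACGTC, chr17:42388432-42388453, minus strand: ggggttccGACGTCgcagccga
STAT4, TTCNNGAA, chr2:191151631-191151654, minus strand: ctctgtgaTTCTAGAAcaggctga
STAT4, TTCNNGAA, chr2:191151132-191151155, minus strand: gttagcatTTCTAGAAtagagtgg
STAT5A, TTCNNNNGAA, chr17:42287202-42287227, plus strand: ttttttttTTCCTCTGAAgttaaaag
Counting the annotated start as position 0, the STAT3 matches run from −131 to −124 and from −3 to 2. The match in STAT5A runs from −229 to −220. The promoters of STAT2, STAT5B and STAT6 held none of the 5 motifs. These matches describe letters in a 300-base window and do not show that a factor binds there.

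The genes around the STATs were then read by their roles, from 15 lists of 151 genes in all, of which 100 were tested. Of these, 9 (9%) were called, 5 higher and 4 lower, against 5.87% of all genes, and their median log2 fold change was 0.02. An unadjusted p under 0.05 was found for 3775 of all 13745 genes tested, against which the unadjusted counts of the lists are to be read. The shares of all genes tested above and below 0 were not counted, so directions within a list are a description only. None of the 3 JAK kinases tested was called by limma or voom, and 0 had an unadjusted p under 0.05, with JAK1 at 16.3 ± 1.1 FPKM in NS control and 15.4 ± 0.788 FPKM in BCL9 KD cells (SD, n = 3) and a log2 fold change of −0.08 (adjusted p = 0.513 by limma). JAK2 had a log2 fold change of 0.09 with a wide 95% interval from −0.42 to 0.61. TYK2 had a log2 fold change of 0.03, which turned to −0.01 without NS control 3 or without BCL9 KD 1. JAK3, the lymphoid JAK, did not exceed 0.106 FPKM.

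None of the 18 cytokine receptor genes tested was called by limma, 3 had an unadjusted p under 0.05, and their median log2 fold change was −0.02. On the recovered reads voom called 2 of them, both higher: IFNGR1, at 11.5 ± 2.29 and 17.1 ± 2.36 FPKM, and the leptin receptor gene LEPR, at 0.671 ± 0.221 and 1.25 ± 0.179 FPKM (SD, n = 3), whose limma adjusted p-values were 0.0877 and 0.101. OSMR, the oncostatin M receptor, was at 36.0 ± 1.68 and 32.2 ± 0.884 FPKM (SD, n = 3; log2 fold change −0.16, adjusted p = 0.181 by limma). IFNGR2, a chain of the interferon gamma receptor, had a log2 fold change of −0.02, and the sign turned under 4 of the alternatives. IL6ST, which encodes the gp130 chain shared by IL6 and LIF receptors and was named after its values were seen, was at 3.85 FPKM in NS control 1 and between 8.7 and 14.0 FPKM in the other 5 libraries (adjusted p = 0.38 by limma). Of the ligands, 3 of 19 could be tested, and 2 had an unadjusted p under 0.05. IL6 RNA did not exceed 0.123 FPKM. LIF rose from 98.9, 103 and 96.0 FPKM to 125, 134 and 130 FPKM, with no overlap between the groups, a log2 fold change of 0.39 and a limma adjusted p of 0.0291. CTF1, the gene of cardiotrophin-1, did not pass, at 0.373 ± 0.0399 and 0.842 ± 0.159 FPKM (SD, n = 3; adjusted p = 0.0745 by limma), nor did CLCF1, another ligand of this family (adjusted p = 0.472 by limma).

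None of the 11 SOCS, CISH and PIAS genes tested, which restrain JAK and STAT signals, was called by limma, and 2 had an unadjusted p under 0.05. SOCS2, a feedback inhibitor of growth hormone signaling that is also listed as a STAT5 target, was called higher by voom and stood at 0.662 ± 0.0462 and 1.21 ± 0.243 FPKM (SD, n = 3; adjusted p = 0.0782 by limma). SOCS3, the feedback inhibitor that STAT3 itself induces, was named after its values were seen and was at 1.53 ± 0.186 and 1.64 ± 0.104 FPKM (SD, n = 3; adjusted p = 0.707 by limma). PIAS4 had a log2 fold change of 0.08 (adjusted p = 0.52 by limma). SOCS4 was at 3.78 FPKM in NS control 1 and between 7.75 and 10.3 FPKM elsewhere, another gene for which that library stood apart (adjusted p = 0.356 by limma). Of the 4 phosphatase genes tested, none was called by limma or voom and 1 had an unadjusted p under 0.05. PTPN1, which removes phosphate from JAKs, was at 24.6 ± 0.793 and 21.8 ± 0.688 FPKM (SD, n = 3; adjusted p = 0.138 by limma), and PTPN11 had a log2 fold change of 0.10 that turned to −0.04 without NS control 1. None of the 9 serine kinase genes, which include those that phosphorylate the carboxyl-terminal serine of STAT3, was called by limma or voom, and 1 had an unadjusted p under 0.05. That gene was MTOR, named after its values were seen, with a log2 fold change of −0.34 (adjusted p = 0.103 by limma). PRKCD, a protein kinase C gene, had a log2 fold change of −0.25 (adjusted p = 0.206 by limma).

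Among the 7 other tyrosine kinases tested, SRC was called, and it fell. An unadjusted p under 0.05 was found for 4 of the 7, all with values below the controls: SRC, EGFR and, named after their values were seen, ERBB2 and LYN, whose log2 fold changes of −0.29 and −0.28 did not pass (adjusted p = 0.0978 and 0.11 by limma). SRC was at 11.7, 9.77 and 9.92 FPKM in NS control and at 6.52, 6.56 and 6.66 FPKM in BCL9 KD libraries, a log2 fold change of −0.63 (adjusted p = 0.0187 by limma). EGFR, at 21.4 ± 1.64 and 17.8 ± 1.6 FPKM (SD, n = 3), did not pass (adjusted p = 0.129 by limma), nor did YES1 (adjusted p = 0.26 by limma), which was at 11.0 FPKM in NS control 1 and 19.1 to 25.0 FPKM elsewhere. Of the 7 cofactors tested, 2 were called, both lower. The log2 fold change was below 0 for 6 of the 7, with a list median of −0.29 against 0.04 over all genes tested. An unadjusted p under 0.05 was found for 6, among them CREBBP at −0.30 and, in the other direction, NMI at 0.35, both named after their values were seen (adjusted p = 0.138 and 0.166 by limma). NCOA1, a co-activator of STAT3, STAT5 and STAT6, went from a mean of 4.16 ± 0.107 to one of 3.02 ± 0.259 FPKM (SD, n = 3; log2 fold change −0.41, adjusted p = 0.0474 by limma). PDLIM2, which marks STAT proteins for degradation, went from a mean of 2.73 ± 0.0997 to one of 1.71 ± 0.178 FPKM (SD, n = 3; log2 fold change −0.55, adjusted p = 0.0352 by limma). A co-activator and a negative regulator thus fell together. EP300, an acetyltransferase that modifies STAT3, and SND1, a co-activator of STAT5 and STAT6, did not pass (adjusted p = 0.143 and 0.127 by limma). IRF9, the partner of STAT2, did not exceed 0.269 FPKM and was not tested.

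The transcription factors from families that the study places beside STAT3, and the targets of STAT3, included genes called higher and a gene called lower. The study names the families AP-1, C/EBP, ETS and REL and, as single factors, ELK4, ELF5 and RELA. The other members of the list, FOS and CEBPD among them, were picked here from those families. Of the 10 factors tested, FOS and CEBPD were called, both higher, and they were also the 2 with an unadjusted p under 0.05. FOS, of the AP-1 factors, was at 1.9, 2.11 and 1.44 FPKM in NS control and at 3.42, 3.36 and 3.43 FPKM in BCL9 KD libraries (log2 fold change 0.76, adjusted p = 0.029 by limma). CEBPD, an acute-phase regulator, went from a mean of 12.5 ± 1.7 to one of 17.9 ± 0.899 FPKM (SD, n = 3; log2 fold change 0.50, adjusted p = 0.045 by limma). CEBPB, at 81.8 ± 7.59 and 81.9 ± 5.66 FPKM (SD, n = 3), and FOSL1, with a log2 fold change of −0.10, did not pass (adjusted p = 0.992 and 0.543 by limma). The value of FOSL1 ran from −0.201 to −0.021 with a library left out.

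Genes that STAT3 activates without tyrosine phosphorylation, as the study lists them, gave 1 call among 3 tested, and all 3 had an unadjusted p under 0.05. BCL2A1, an anti-apoptotic gene, went from 3.92, 3.59 and 3.56 FPKM to 6.23, 6.07 and 6.15 FPKM (log2 fold change 0.67, adjusted p = 0.0117 by limma). MET, the HGF receptor gene, and MRAS, a RAS relative, had log2 fold changes of −0.28 and −0.46 and did not pass (adjusted p = 0.152 and 0.0743 by limma). Of the 5 other targets tested here, which the study's discussion gives as examples, CCND1 was called lower and MMP2 higher, the 2 with an unadjusted p under 0.05. The study also describes integrin β3, Cox-2, FoxO1 and phosphorylated c-Jun as direct STAT3 targets, from its protein array. They were not in this list. This list and that of unphosphorylated STAT3 were taken from the study. All 15 lists were chosen with results of these libraries known, so their counts are not independent evidence of a direction. CCND1, the cyclin D1 gene, was at 96.5, 96.3 and 81.3 FPKM in NS control and at 67.0, 61.6 and 60.0 FPKM in BCL9 KD libraries (log2 fold change −0.53, adjusted p = 0.0301 by limma). MMP2, a gelatinase gene, was at 9.44, 9.12 and 8.91 FPKM in NS control and at 15.2, 16.4 and 16.0 FPKM in BCL9 KD libraries (log2 fold change 0.76, adjusted p = 0.00753 by limma). MYC and ICAM1 had log2 fold changes of 0.05 and 0.15 and did not pass (adjusted p = 0.694 and 0.24 by limma).

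Of 13 further STAT3 targets tested, FOS and CEBPD, already described, were called. Values above 0 were found for 10 of the 13 log2 fold changes, with a list median of 0.10 against 0.04 over all genes tested. All 6 with an unadjusted p under 0.05 were higher: FOS, CEBPD, TIMP1 and, named after their values were seen, JUNB at 0.30, HIF1A at 0.65 and TWIST1 at 0.44 (adjusted p = 0.073, 0.141 and 0.0884 by limma). HIF1A varied among the controls, at 34.5, 50.4 and 72.8 FPKM in NS control libraries and 82.7, 75.5 and 79.3 FPKM in BCL9 KD libraries. MCL1, a survival gene, had a log2 fold change of 0.03, and TIMP1, a metalloproteinase inhibitor gene, one of 0.41 (adjusted p = 0.78 and 0.053 by limma). Targets of the other STATs gave no call by limma, with 1 unadjusted p under 0.05 (SOCS2): 0 of 5 for STAT5, with PIM2 at a log2 fold change of 0.01 and BCL2L1 at 0.10, and 0 of 1 for STAT6, its tested target being IL4R at 0.07. Interferon-stimulated genes, the targets of STAT2 and IRF9, gave 0 calls of 9 tested by limma or voom, 0 with an unadjusted p under 0.05, and a median log2 fold change of 0.19. OAS3 had a log2 fold change of −0.22 and IFI6 one of 0.54, with NS control libraries of IFI6 from 2.4 to 5.62 FPKM that overlapped the BCL9 KD range. With a library left out, the value of IFI6 ran from 0.284 to 0.823. Of the 9 genes called in these lists, 0 kept an adjusted p under 0.05 in the limma fits without NS control 2, without BCL9 KD 2 or without BCL9 KD 3. Their limma adjusted p-values were then 0.0636 to 0.172, 0.06 to 0.205 and 0.07 to 0.202. Without NS control 1, 7 of the 9 remained called, with 8 remaining without NS control 3 and 6 without BCL9 KD 1, and the highest limma adjusted p-values were 0.0574, 0.0535 and 0.0645. With all libraries, calls were also lost with no filter, where 2 of the 9 remained called (BCL2A1 and MMP2), and without the trend, where 5 did (BCL2A1, FOS, MMP2, PDLIM2 and SRC). CEBPD was not called under median-of-ratios scaling, nor NCOA1 with robust fitting, nor BCL2A1 with the GC correction, with limma adjusted p-values of 0.0688, 0.05 and 0.0545.

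**Figure D5:**
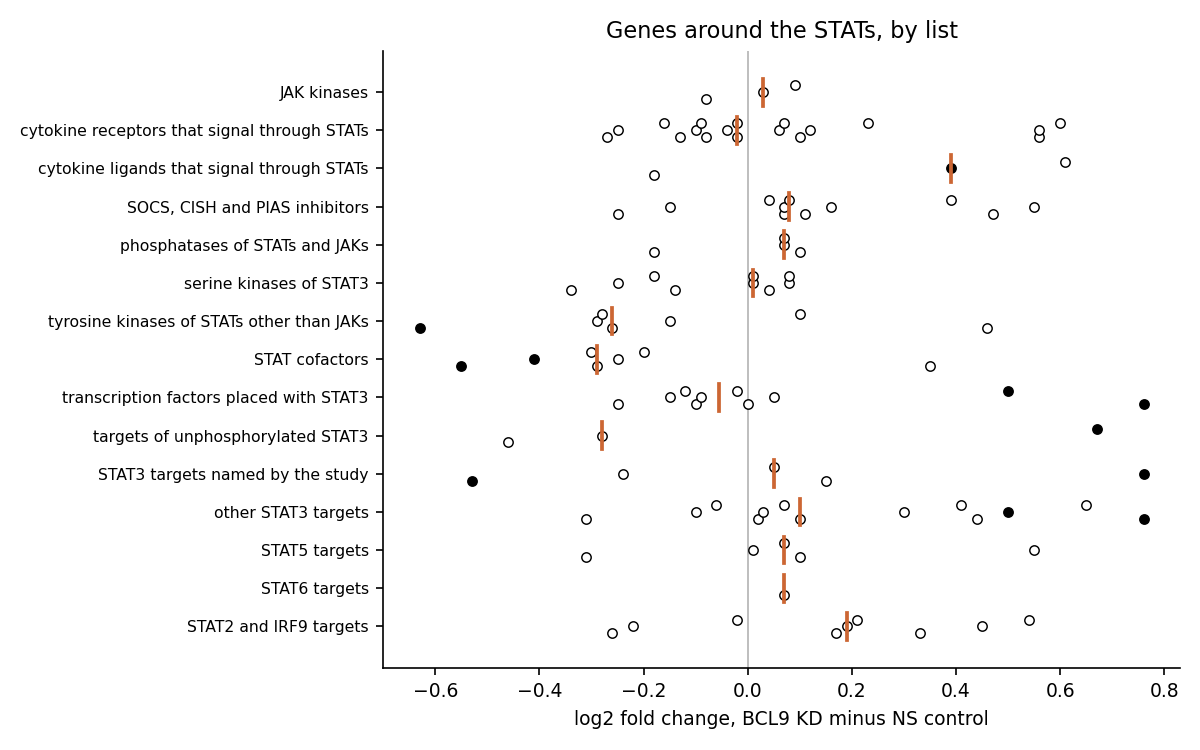
Log2 fold change, BCL9 KD minus NS control, of each tested gene of the 15 lists of kinases, receptors, ligands, inhibitors, cofactors and targets, with filled points for limma adjusted p under 0.05 and an orange tick at the median of each list. The 9 called genes lie on both sides of 0, and FOS and CEBPD appear in both lists that hold them.

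The genes whose levels followed those of STAT3 most closely over the 6 libraries were sought among 11145 protein-coding genes by Pearson r on log2(FPKM + 0.5). They were STK40, a pseudokinase, with r = 0.9991, FDXR, the mitochondrial ferredoxin reductase, with r = 0.9985, and DHRS3, a retinal reductase, with r = 0.9982, followed by PHLDB1 at 0.9966 and AP2A2, a clathrin adaptor subunit, at 0.9965. STK40 was at 9.96, 8.75 and 8.18 FPKM in NS control and at 6.81, 6.55 and 6.28 FPKM in BCL9 KD libraries. As with STAT3, NS control 1 was the highest library and BCL9 KD 3 the lowest. The log2 fold changes of the 5 genes ran from −0.42 for STK40 to −0.25 for PHLDB1, all smaller in size than that of STAT3. Since they were chosen for following STAT3 over the libraries compared, lower values in BCL9 KD cells were built into the choice, and their calls are a description only. STK40 and DHRS3 were called (adjusted p = 0.0466 and 0.0486 by limma), and FDXR, PHLDB1 and AP2A2 were not. Both calls were lost without NS control 1, NS control 2, BCL9 KD 1, BCL9 KD 2 or BCL9 KD 3, with limma adjusted p-values from 0.0504 to 0.207. With all libraries they were lost under median-of-ratios scaling (0.058 to 0.0624), with no filter (0.101 to 0.104) and without the trend (0.0687 to 0.0795).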

How the data were processed

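RNA was extracted from 3 flasks of NS control and 3 of BCL9 KD DCIS.COM cells, and libraries were made with the NEBNext Ultra kit. The authors aligned reads with STAR and counted them with HTSeq 0.6.1 on hg38, per the labels, and deposited FPKM with each gene's length and position. Multiplied by gene length, 100% of the values above 0 were whole numbers of reads (within 0.1), which gave the depth of each library. The deposited gene length, in other units (bases), was used for this. Replicates come from flasks of a single line, so p-values measure the spread between flasks. The study's methods state 2 biological replicates per condition for its test, whereas the labels and the table give 3, and all 3 were used. Intervals cover the spread between libraries, and reads were counted without molecular identifiers, so they are not independent.

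The study tested counts, whereas here limma 3.58.1 (R 4.3.3) with an empirical Bayes trend was fitted to log2(FPKM + 0.5) over all genes with a mean of at least 0.5 FPKM, without a block, and checked on simulated reads. Alternatives were 1 or 0.1 FPKM added, other filters and scalings, no trend, robust fitting, protein-coding genes only, voom on recovered reads, a GC correction (loess, span 0.3; GC content known for 98.8% of genes tested), a replicate block, and each library left out. Single values were compared by two-sided exact permutation tests over libraries. Tables were handled with pandas 2.3.3 and scipy 1.17.1 in Python 3.11, and drawn with matplotlib 3.10.9. Promoter sequences are RefSeq's, and shared windows and GC content came from GRCh37 transcripts.

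The members and lists were chosen with earlier results of these data known. Named genes were the STAT genes, BCL9, in each list every called gene and the 2 others with the highest mean FPKM, the 5 genes most like STAT3, and the called and nearest tested neighbours of STAT3. JAK2, JAK3, IL6, IFNGR1, LEPR, SOCS2, IRF9, the genes that overlap STAT6, the called neighbours of STAT2 and the genes so marked in the text, were named after their values were seen. Other STAT genes were not analysed here, and a few genes that this rule or the marker lists take are not reported here.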

Additional observations from a re-analysis of the deposited data

How the results depend on the processing

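STAT3 kept its direction under all 19 alternatives, with log2 fold changes from −0.63 to −0.46, and was called in 13 of them. It was not called with no filter on low values (log2 fold change −0.56, limma adjusted p = 0.085) or without the trend (−0.56, limma adjusted p = 0.0548), and leaving out a library gave −0.63 to −0.46. STAT2, STAT4, STAT5B and STAT6 kept their directions and were called in none of the 19. The log2 difference of STAT5A, 0.40, became 0.26 with 1 FPKM added and 0.77 with 0.1, as the added value sets its size. The difference between the change of STAT3 and that of STAT2, STAT4, STAT5B and STAT6 kept its direction under the alternatives tried, with −0.44 to −0.26, −0.98 to −0.82, −0.44 to −0.32 and −0.79 to −0.61 when a library was left out, and the STAT3 share then differed by −11.2 to −8.54 percentage points.

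With the replicate block, the log2 fold change of STAT3 was −0.56 (limma adjusted p = 0.0788), 0 genes were called (3235 at an unadjusted p under 0.05) and 0 list genes were called. With the GC correction as well, these were −0.50 (limma adjusted p = 0.049), 154 and 1. The labels give the numbers with no shared batch, and deviations of same-numbered libraries had a mean correlation of −0.0795, against 0.0387 for different numbers. Exact permutation within pairs of the block allows no p under 0.25, which each STAT3 ratio and the share gave.

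The count of 807 called genes became 142 with no filter, 332 without the trend, 1409 for protein-coding genes only, 1389 with voom, 1650 with the GC correction and 5 to 1712 with a library left out. The 9 called list genes became 2 with no filter, 14 for protein-coding genes only, 14 with the GC correction and 0 to 12 with a library left out. The cause was not tested. Some genes named by the rule and not called gained a call: TIMP1 in 5 of the 19 alternatives, FDXR in 3, MRAS in 2 and CTF1 in 3 of 18. ICAM1, IFI6, MET and OSMR were called in 1 each. Near 0, signs turned under median-of-ratios scaling, quantile normalization and voom for PIM2 (−0.02, −0.049 and −0.01) and CEBPB (−0.03, −0.064 and −0.031), under quantile normalization for MYC (−0.003) and MCL1 (−0.041), and with the GC correction, alone or with the block, for IFNGR2 (0.045 and 0.045). With a library left out the range was −0.067 to 0.128 for PIM2, −0.038 to 0.077 for CEBPB, −0.007 to 0.082 for TYK2, −0.02 to 0.076 for MCL1, −0.068 to 0.042 for IFNGR2 and −0.037 to 0.196 for PTPN11.

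Depth limits STAT4 and STAT5A, with 18 to 132 reads per library.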
